A study of Homo sapiens with 12 samples.

Results

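The interleukin 1 family covers cytokines, their receptors and their natural inhibitors, and 10 of its genes are described here of the 19775 genes that the arrays measured under a single gene symbol. The ligands were IL1A, IL1B, IL33 and IL18, the inhibitors were IL1RN and the decoy receptor IL1R2, and the receptors were IL1R1, IL1RAP, IL1RL1 and IL18R1. The genes were listed by name. IL1RL1 and IL1R2 were put on the list because their levels fell steeply with erlotinib, so for these genes the erlotinib comparisons are a description with no test. All 10 genes were measured, by 22 probe sets in all, and unless stated otherwise a gene's values are those of its brightest probe set, by the mean over the 12 arrays.

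The study asked how a miRNA changes the response of cancer cells to a targeted drug. PC9 cells come from a human lung adenocarcinoma and grow on the signal of a mutant EGFR, whose kinase erlotinib inhibits. There were 4 groups of 3 arrays each: cells stably expressing pre-miR-371 and treated with erlotinib, the same cells in DMSO, cells with a GFP vector and treated with erlotinib, and GFP vector cells in DMSO. Treatment lasted 24 h, with erlotinib at 2 µM or with DMSO alone. Per the study's methods pre-miRNAs were delivered by lentivirus, with a scrambled hairpin in a GFP vector as the control. As each construct was present in 1 stable line, the effect of pre-miR-371 and other differences between the lines cannot be told apart. The labels do not say that the replicates were separate cultures, so the p-values measure only the spread between these samples. RNA was hybridised to Affymetrix HG-U133 Plus 2.0 arrays, and a value is the log2 expression of a probe set, normalized by the authors.

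IL-1α and IL-1β bind IL1R1, which then recruits IL1RAP as its signalling partner. IL-33 binds ST2, the product of IL1RL1, which uses the same partner, and IL-18 binds IL18R1 and its own partner IL18RAP. These receptors signal through MyD88 and the IRAK kinases to NF-kB, while IL1RN blocks IL1R1 without signalling and IL1R2 binds the cytokines but has no signalling domain. Epithelial cells can make IL-33, IL-18 and IL-1α, and a soluble form of ST2 made from the same gene captures IL-33.

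The pre-miR-371 hairpin, which separates the lines by design, yields a 3p and a 5p mature miRNA. The 3p strand is given because the study followed it. It is from RefSeq (GRCh38.p14, chr19:53787716-53787738, plus strand), and the capitals mark the seed, bases 2 to 8 from the 5′ end.

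hsa-miR-371a-3p: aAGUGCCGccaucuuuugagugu

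The arrays were alike in scale, with medians between 4.31 and 4.41 and upper quartiles between 6.72 and 6.92 log2 units. Arrays of a group correlated at r between 0.996 and 0.997, and no pair of arrays held identical values. The 6 epithelial markers (EPCAM, KRT8, KRT18, KRT7, KRT19 and CDH1) had group means between 10.7 and 13.7 log2 units, whereas NKX2-1, NAPSA and SFTPB, which mark lung adenocarcinoma, were low in every group, between 4.27 and 5.81. The 6 measured leukocyte markers had no group mean over 5.96, and PTPRC, the pan-leukocyte marker, averaged 2.78 and 2.86 in erlotinib and DMSO pre-miR-371 cells and 2.83 and 2.79 in erlotinib and DMSO GFP vector cells.

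With erlotinib 3 receptor genes fell far in both lines, and of these IL1RL1 and IL1R2 had been listed for that fall. IL1RL1 and IL1R2 lost most of their signal, IL18R1 followed, IL18 fell by 0.94 and 1.08 on the log2 scale, IL1A and IL1B were called lower in GFP vector cells on their main probe sets, and IL1R1 did not pass the test. Between the lines, IL1RN was lower in pre-miR-371 cells in both treatments on its main probe set. In bulk RNA, fewer cells that express a gene and less RNA per cell cannot be told apart.

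**Figure D1:**
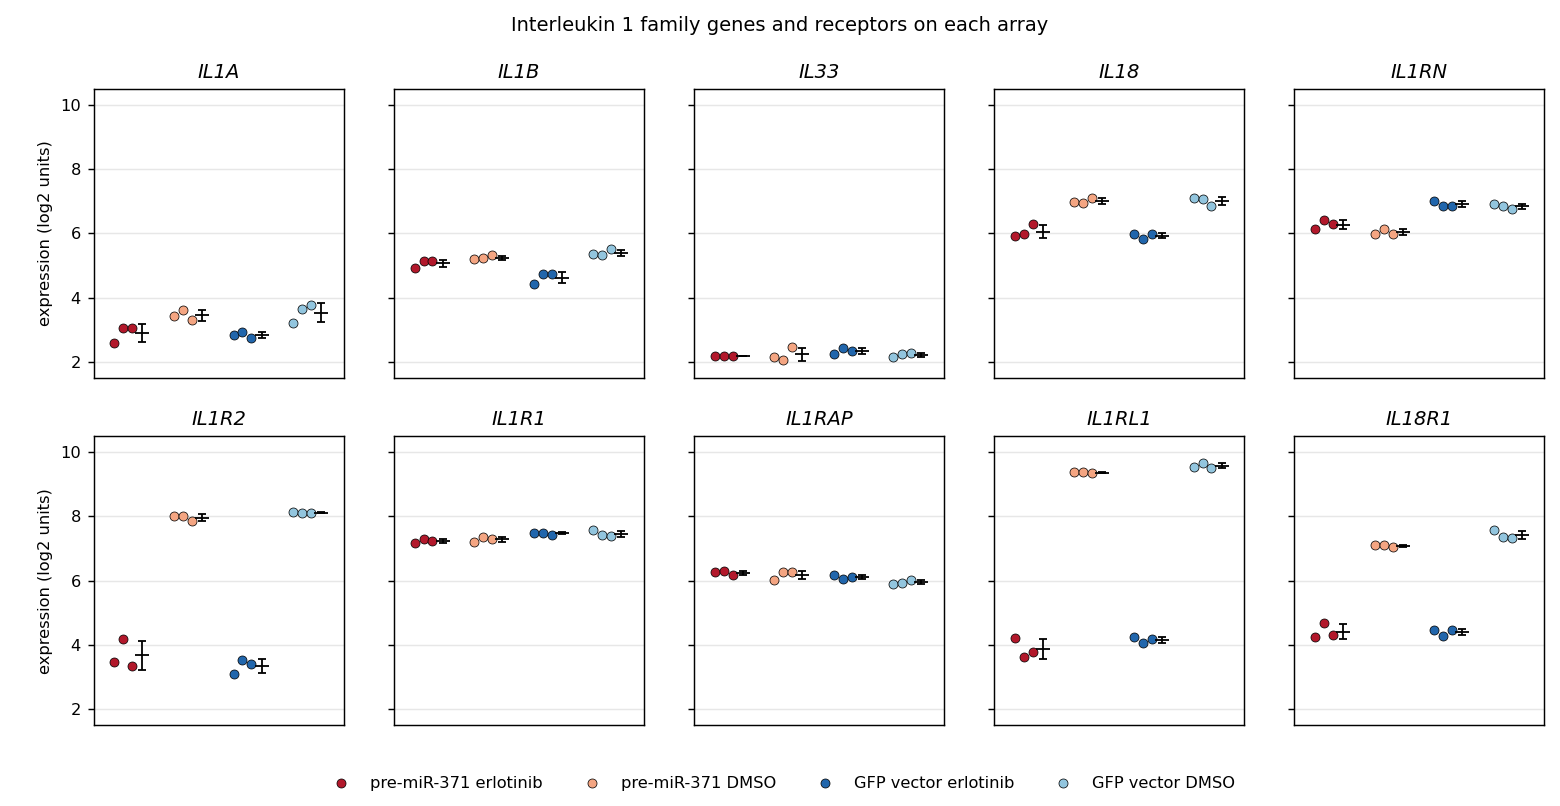
Log2 expression of the 10 genes on each of the 12 arrays (points), with the mean and SD of each group of 3 arrays beside them (bars); the vertical axis is in log2 units and is the same in all panels. IL1RL1, IL1R2 and IL18R1 sit between 7.05 and 9.67 in DMSO arrays and between 3.10 and 4.68 in erlotinib arrays.

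IL1RL1 encodes ST2, the receptor of IL-33. In pre-miR-371 cells its log2 levels were 4.22, 3.63 and 3.79 in erlotinib, against 9.38, 9.37 and 9.34 in DMSO. In GFP vector cells they were 4.26, 4.07 and 4.18 in erlotinib, against 9.54, 9.67 and 9.51 in DMSO. The erlotinib arrays were all low and the DMSO arrays all high, and the gap between the nearest arrays was at least 5.12 log2 units in either line. The log2 fold change was -5.48 (SE 0.12) in pre-miR-371 cells and -5.41 (SE 0.12) in GFP vector cells. Counted from the most negative change, this was place 3 among the 19775 genes in both lines, which is how the gene came to be listed.

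The probe sets of IL1RL1 did not move alike. With erlotinib the log2 fold change was -5.48, -2.54, -1.78 and -0.11 over its 4 probe sets in pre-miR-371 cells, and -5.41, -3.21, -2.41 and -0.24 in GFP vector cells. The probe set that hardly moved (210442_at) averaged 4.75 in erlotinib and 4.86 in DMSO pre-miR-371 cells, and 4.38 in erlotinib and 4.61 in DMSO GFP vector cells. IL1RL1 gives rise to membrane-bound and soluble ST2, and the probe sets were not assigned to these forms here.

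IL1R2 encodes the decoy receptor. Its log2 levels were 3.48, 4.19 and 3.36 in erlotinib-treated pre-miR-371 cells, against 8.03, 8.02 and 7.85 in DMSO. In GFP vector cells they were 3.10, 3.53 and 3.41 in erlotinib, against 8.12, 8.11 and 8.09 in DMSO. The groups were again far apart, by at least 3.66 log2 units between the nearest arrays. The log2 fold change was -4.29 (SE 0.18) in pre-miR-371 cells and -4.76 (SE 0.18) in GFP vector cells, places 9 and 5 from the most negative change. Its other probe set (211372_s_at) fell alongside, by 3.72 on the log2 scale in pre-miR-371 cells and by 3.74 in GFP vector cells.

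IL18R1, which binds IL-18, lies next to IL1RL1 in the genome and was not listed for its response. It had log2 levels of 4.24, 4.68 and 4.32 in erlotinib-treated pre-miR-371 cells, against 7.10, 7.10 and 7.05 in DMSO. In GFP vector cells the levels were 4.46, 4.28 and 4.47 in erlotinib, against 7.58, 7.35 and 7.33 in DMSO. No erlotinib array reached the level of any DMSO array in either line. IL18R1 fell by 2.67 on the log2 scale in pre-miR-371 cells (SE 0.11, limma adjusted p = 1.47e-09) and by 3.02 in GFP vector cells (SE 0.11, limma adjusted p = 3.84e-10). The erlotinib levels of IL18R1, IL1RL1 and IL1R2 were all near or below the array medians, where a probe set may no longer follow its transcript, so the size of each fall is less certain than its direction.

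**Figure D2:**
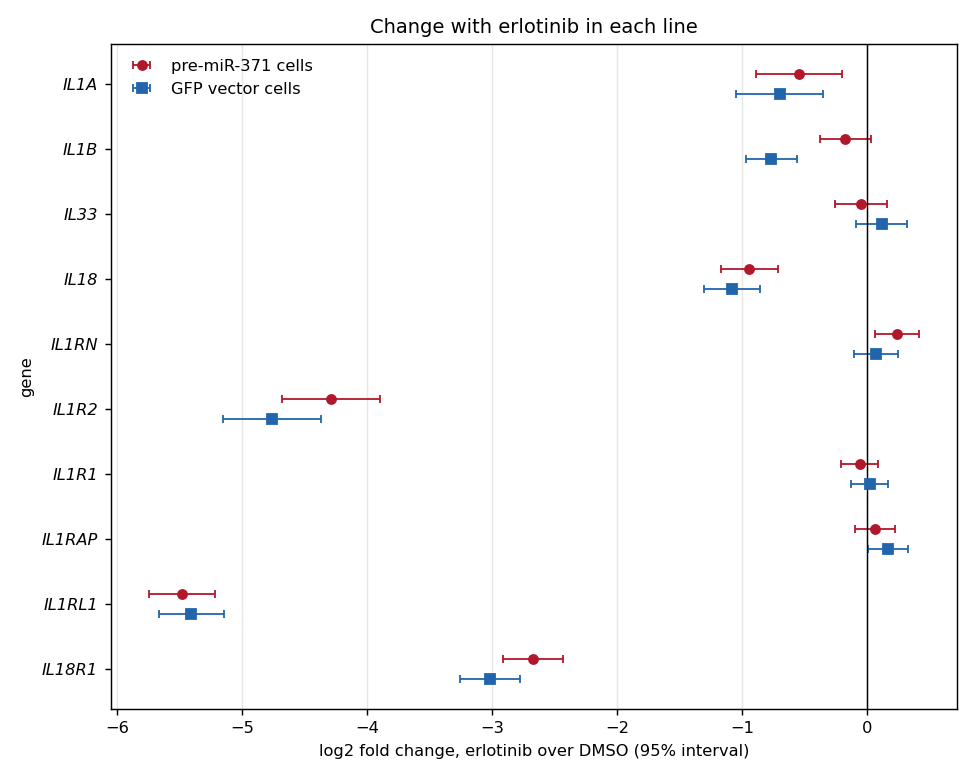
Log2 fold change of each gene, erlotinib over DMSO, in pre-miR-371 cells (red circles) and GFP vector cells (blue squares); lines are 95% confidence intervals from limma. IL1RL1, IL1R2 and IL18R1 lie below -2.6 in both lines, and IL1R1 and IL1RAP lie within 0.17 of 0.

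The promoter windows of these receptors are shown because the genes fell together. Each covers 250 bases before to 50 bases after a start site in RefSeq (GRCh38.p14), written 5′ to 3′ on the gene's strand, and capitals mark matches, on either strand, to the AP-1 element TGANTCA, the ETS element CCGGAA or the NF-kB consensus. Windows were found for 9 of the 10 genes, 19 in all.

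IL1RL1, chr2:102337007-102337306, plus strand: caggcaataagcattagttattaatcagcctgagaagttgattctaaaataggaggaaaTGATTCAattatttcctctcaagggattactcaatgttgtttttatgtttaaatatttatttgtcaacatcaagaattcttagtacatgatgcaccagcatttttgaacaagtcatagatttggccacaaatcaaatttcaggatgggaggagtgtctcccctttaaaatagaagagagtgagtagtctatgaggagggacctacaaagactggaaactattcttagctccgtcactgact
IL1R2, chr2:101991710-101992009, plus strand: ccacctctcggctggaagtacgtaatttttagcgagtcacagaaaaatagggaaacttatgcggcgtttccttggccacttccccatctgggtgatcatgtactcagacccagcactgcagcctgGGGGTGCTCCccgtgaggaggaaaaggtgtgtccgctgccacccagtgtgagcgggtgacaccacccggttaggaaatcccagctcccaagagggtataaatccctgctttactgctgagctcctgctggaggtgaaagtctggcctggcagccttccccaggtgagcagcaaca
IL18R1, chr2:102355546-102355845, plus strand: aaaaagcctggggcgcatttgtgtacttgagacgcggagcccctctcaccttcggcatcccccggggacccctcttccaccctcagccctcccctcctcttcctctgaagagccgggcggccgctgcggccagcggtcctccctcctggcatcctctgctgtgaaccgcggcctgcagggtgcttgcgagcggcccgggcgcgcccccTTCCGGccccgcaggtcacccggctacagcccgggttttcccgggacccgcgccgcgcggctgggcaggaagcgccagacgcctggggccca

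Each of these 3 genes had 2 windows, and for each 1 window with a match is shown. The windows shown did not share a motif, which depends on this choice. The IL1RL1 window held 1 AP-1 match, the IL1R2 window 1 NF-kB match and the IL18R1 window 1 ETS match. A further window of IL18R1 (chr2:102356033-102356332) held 1 NF-kB match, the motif also found in the IL1R2 window shown. Further windows of IL1RL1 and IL1R2 held none of the motifs. Among all 35116 promoter windows of the same length, the AP-1 element was found in 7.71%, the ETS element in 17.2% and the NF-kB consensus in 11.3%. Of the 19 windows of the 10 genes, 4 held the AP-1 element (both overlapping IL1A windows, with 2 matches each, 1 of 3 IL1RN windows and the IL1RL1 window shown), 1 held the ETS element and 2 the NF-kB consensus. A match of letters is a description of the sequence and was not tied to binding by any measurement here.

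IL1R2, IL1R1, IL1RL2, IL1RL1, IL18R1 and IL18RAP follow each other on chromosome 2 in this order in RefSeq, and they did not fall as a block. IL1R1, the signalling receptor of IL-1, had log2 levels of 7.17, 7.30 and 7.23 in erlotinib and 7.21, 7.37 and 7.30 in DMSO pre-miR-371 cells. In GFP vector cells the levels were 7.48, 7.49 and 7.43 in erlotinib and 7.56, 7.42 and 7.38 in DMSO. The erlotinib and DMSO arrays of a line overlapped. The log2 fold change of IL1R1 was -0.06 in pre-miR-371 cells (95% interval -0.21 to 0.08, limma adjusted p = 0.496) and 0.02 in GFP vector cells (-0.13 to 0.16, limma adjusted p = 0.861), so a change beyond about 0.21 lay outside both intervals. Its other probe set (215561_s_at) averaged 2.80, below the array medians, and gave -0.07 in pre-miR-371 cells and 0.08 in GFP vector cells. IL1RL2, the IL-36 receptor, had log2 fold changes of -0.15 and -0.18 in pre-miR-371 and GFP vector cells and IL18RAP, the partner of IL18R1, of -0.27 and -0.06, and neither passed the test, but both were low in every group, at 3.66 to 4.04 log2 units. MAP4K4, a kinase gene on the far side of IL1R2, had log2 fold changes of -1.81 in pre-miR-371 cells and -1.96 in GFP vector cells (limma adjusted p = 1.21e-10 and 4.06e-11).

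**Figure D3:**
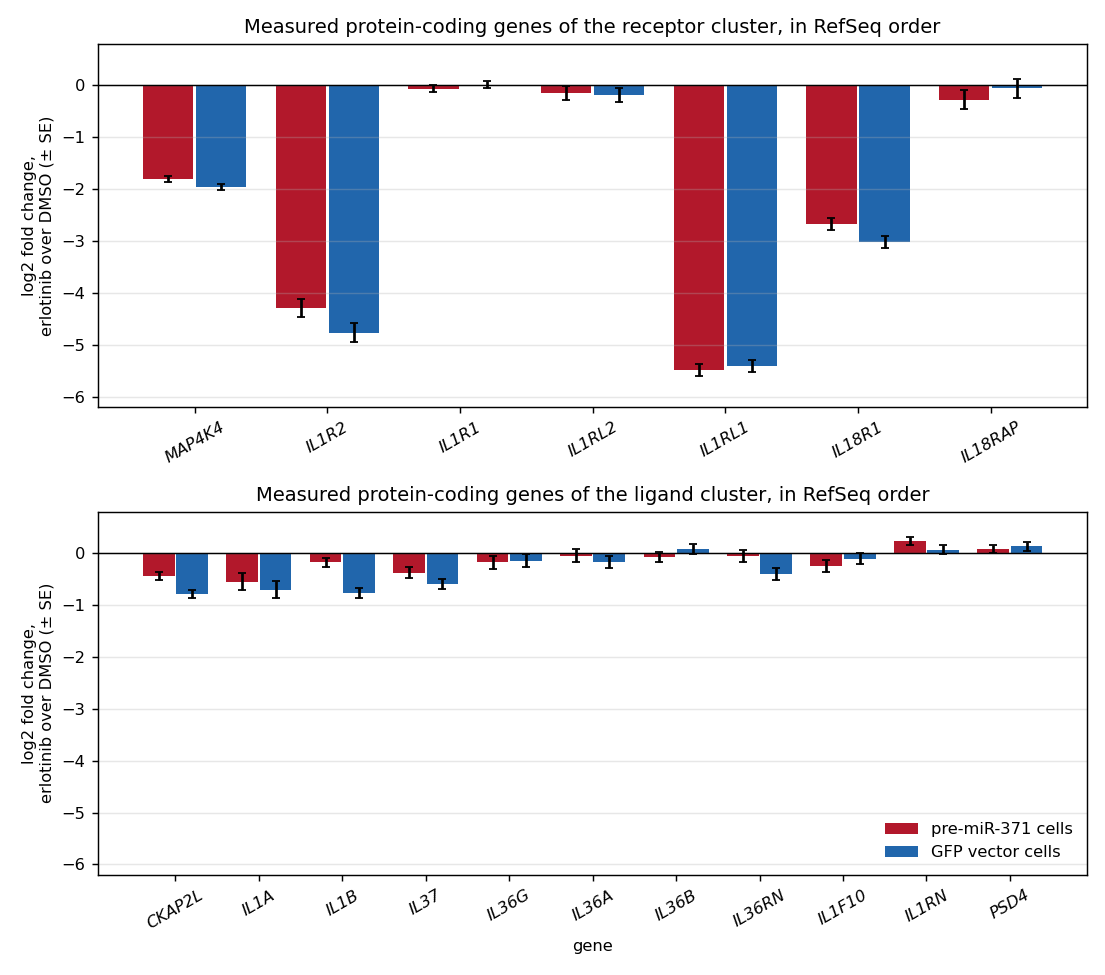
Log2 fold change, erlotinib over DMSO, of the measured genes of the receptor cluster (top) and the ligand cluster (bottom) in RefSeq gene order, with pre-miR-371 cells (red) left of GFP vector cells (blue); error bars are SE and the horizontal axis is not to genomic scale. In the receptor cluster IL1R1 and IL1RL2 lie between IL1R2 and IL1RL1 with log2 fold changes between -0.18 and 0.02.

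IL1RAP, the shared signalling partner, had log2 levels of 6.27, 6.30 and 6.17 in erlotinib and 6.04, 6.25 and 6.26 in DMSO pre-miR-371 cells, and of 6.19, 6.05 and 6.11 in erlotinib and 5.90, 5.92 and 6.03 in DMSO GFP vector cells. The groups overlapped in pre-miR-371 cells and were set apart by 0.02 log2 units in GFP vector cells. Its log2 fold change was 0.06 in pre-miR-371 cells (limma adjusted p = 0.538) and 0.17 in GFP vector cells (limma adjusted p = 0.0864). The other probe set of IL1RAP (210233_at) went the other way, with log2 fold changes of -0.60 in pre-miR-371 cells (limma adjusted p = 0.0021 over all probe sets) and -0.45 in GFP vector cells (limma adjusted p = 0.0123), so no direction is given for this gene.

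Among the ligands, IL18 had the largest change with erlotinib in both lines. Its log2 levels were 5.91, 5.97 and 6.29 in erlotinib-treated pre-miR-371 cells, against 6.97, 6.94 and 7.10 in DMSO. In GFP vector cells they were 5.99, 5.83 and 5.97 in erlotinib, against 7.10, 7.07 and 6.86 in DMSO. All erlotinib arrays were below all DMSO arrays of the same line. IL18 fell by 0.94 on the log2 scale in pre-miR-371 cells (SE 0.10, limma adjusted p = 7.34e-06) and by 1.08 in GFP vector cells (SE 0.10, limma adjusted p = 1.78e-06). The ligand IL18 and its receptor IL18R1 thus both fell in both lines, each on the 1 probe set that measured it.

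IL1B is a pro-inflammatory cytokine that needs cleavage to be active, and its response differed between the lines on the main probe set. In pre-miR-371 cells its log2 levels were 4.94, 5.13 and 5.15 in erlotinib, against 5.20, 5.22 and 5.32 in DMSO. In GFP vector cells they were 4.43, 4.72 and 4.73 in erlotinib, against 5.35, 5.32 and 5.51 in DMSO. The erlotinib arrays were below the DMSO arrays in both lines, by a gap of 0.05 in pre-miR-371 cells and 0.59 in GFP vector cells. IL1B fell by 0.77 on the log2 scale in GFP vector cells (SE 0.09, limma adjusted p = 1.51e-05), and its log2 fold change in pre-miR-371 cells was -0.18 (SE 0.09, limma adjusted p = 0.151). The difference of the responses, pre-miR-371 minus GFP vector, was 0.59 (SE 0.13, limma adjusted p = 0.0431), a ratio of 1.51 that lies just past the limit of 1.5. It did not hold on the other probe set of IL1B (39402_at), where the difference of responses was -0.10 (limma adjusted p = 0.868 over all probe sets). There the log2 fold change was -0.59 in pre-miR-371 cells (limma adjusted p = 0.00139, past the fold limit). In GFP vector cells it was -0.49 (limma adjusted p = 0.00438, under the fold limit). The call was also lost when any of 11 of the 12 arrays was left out, with adjusted p between 0.0434 and 0.108 over the 12 fits.

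IL1A and IL33, which act as alarm signals when released from cells, were below the array medians on all arrays. IL1A had log2 levels of 2.59, 3.06 and 3.05 in erlotinib and 3.42, 3.62 and 3.30 in DMSO pre-miR-371 cells, and of 2.83, 2.94 and 2.74 in erlotinib and 3.20, 3.66 and 3.76 in DMSO GFP vector cells. All of its erlotinib arrays were below the DMSO arrays of the same line, and all 12 values were under the array medians. IL1A fell by 0.70 on the log2 scale in GFP vector cells (SE 0.16, limma adjusted p = 0.00232), and its log2 fold change was -0.54 in pre-miR-371 cells (limma adjusted p = 0.0125, fold 1.46, under the limit). Its other probe set (208200_at) gave -0.09 in pre-miR-371 cells and 0.19 in GFP vector cells. With the mean of both probe sets the call in GFP vector cells was lost (log2 fold change -0.25, limma adjusted p = 0.136). IL33, the ligand of ST2, was between 2.07 and 2.47 log2 units on all 12 arrays, and its log2 fold change was -0.05 in pre-miR-371 cells and 0.11 in GFP vector cells (limma adjusted p = 0.713 and 0.361).

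The inhibitor IL1RN changed little with erlotinib but differed between the lines. Its log2 levels were 6.13, 6.41 and 6.28 in pre-miR-371 cells in erlotinib, against 7.00, 6.85 and 6.86 in GFP vector cells in erlotinib. In DMSO they were 5.99, 6.14 and 5.98 in pre-miR-371 cells, against 6.90, 6.85 and 6.76 in GFP vector cells. Every pre-miR-371 array was below every GFP vector array in the same treatment. IL1RN was lower in pre-miR-371 cells by a log2 fold change of -0.63 in erlotinib (SE 0.08, limma adjusted p = 0.000542) and of -0.80 in DMSO (SE 0.08, limma adjusted p = 0.000488). The change with erlotinib was 0.24 in pre-miR-371 cells (limma adjusted p = 0.0306, fold 1.18, under the limit) and 0.07 in GFP vector cells (limma adjusted p = 0.534), and the difference of the responses was 0.17 (limma adjusted p = 0.554).

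The 5 probe sets of IL1RN gave a mixed account of this difference. In erlotinib the log2 fold change, pre-miR-371 over GFP vector, was -0.57 on 212659_s_at (limma adjusted p = 0.0381 over all probe sets) and -0.14 on 216243_s_at (limma adjusted p = 0.313). In DMSO it was -0.25 on 212659_s_at (limma adjusted p = 0.409) and -0.64 on 216243_s_at (limma adjusted p = 0.00246). The remaining probe sets, 216245_at and 216244_at, were under 3.41 log2 units on all arrays and gave differences between -0.19 and 0.14. With the mean of all 5 probe sets the log2 fold change was -0.29 in both treatments, under the limit of 1.5-fold. Without replicate 1 of the erlotinib-treated pre-miR-371 cells the difference in erlotinib was -0.56 and also under that limit.

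**Figure D4:**
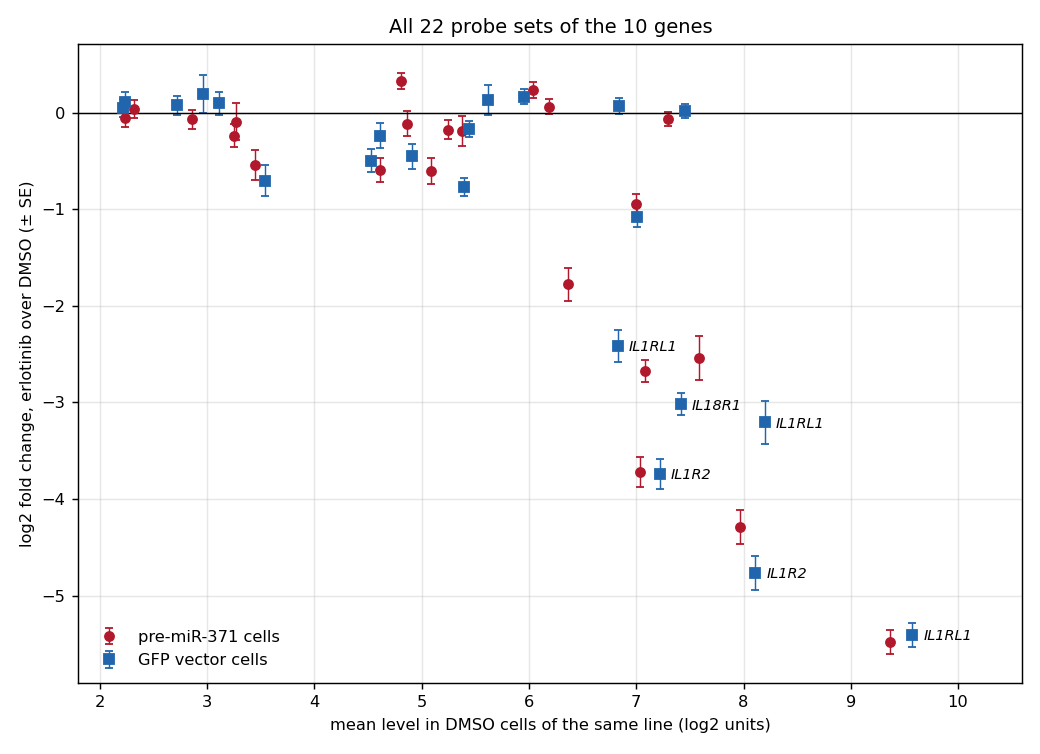
Log2 fold change, erlotinib over DMSO, of all 22 probe sets (vertical axis, ± SE) against their mean log2 level in the DMSO arrays of the same line (horizontal axis), with pre-miR-371 cells as red circles and GFP vector cells as blue squares. Every probe set that fell by more than 1.5 belongs to IL1RL1, IL1R2 or IL18R1, and all of them were above 6.3 log2 units in DMSO.

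For the counts, a gene was called at a limma adjusted p under 0.05 and a fold over 1.5. Of the 8 genes not picked on their fall, 2 were called lower with erlotinib in pre-miR-371 cells (IL18 and IL18R1), where 9.33% of all genes were called lower, and 4 in GFP vector cells (these and IL1A and IL1B), where 11.7% were. None was called higher by limma or by the methods' t-test, against 12.6% of all genes in pre-miR-371 cells and 14.1% in GFP vector cells, and 1 gene was higher at an unadjusted p under 0.05 in each line (IL1RN in pre-miR-371 cells, and IL1RAP in GFP vector cells on its main probe set alone, as its other probe set was lower), where 26.5% and 28.4% of all genes were. At the same unadjusted p, 3 of the 8 genes were lower in pre-miR-371 cells and 4 in GFP vector cells, beside 25.4% and 25.3% of all genes. The median log2 fold change of the 8 genes was -0.12 in pre-miR-371 cells and -0.34 in GFP vector cells, beside -0.03 and 0.0029 over all genes. With 8 genes, these counts describe the genes named and not the family.

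Between the lines, 1 of the 10 genes (IL1RN) was called lower in pre-miR-371 cells in erlotinib, where 0.551% of all genes were, and 1 (again IL1RN) in DMSO, where 0.233% were. None was called higher in erlotinib, against 0.688% of all genes, or in DMSO, against 0.217%. IL1B was higher in erlotinib with a limma adjusted p of 0.00835 and a fold of 1.36, under the limit. At an unadjusted p under 0.05, 1 gene was higher and 3 were lower in each treatment. These were IL1B, and IL1RN, IL1R1 and IL1RL1, in erlotinib, where 12.8% of all genes were higher and 17.7% lower, and IL1RAP, and IL1RN, IL1R1 and IL18R1, in DMSO, where 9.02% were higher and 13.8% lower. The methods' t-test called none higher. The median log2 fold change over the 10 genes was 0.04 in erlotinib and -0.15 in DMSO, beside -0.01 and -0.0013 over all genes. In the difference of responses, 1 of the 8 genes not picked on their fall (IL1B) was called higher, against 0.516% of all genes, and none lower by limma, against 0.283%, and at an unadjusted p under 0.05 none was lower, where 7.29% of all genes were, and 2 (IL1B and IL18R1) were higher, where 7.75% were. Repeating the quantile normalization moved the split of all calls between the lines to 186 higher and 93 lower in erlotinib, beside 136 and 109, and to 54 higher and 33 lower in DMSO, beside 43 and 46. These comparisons share arrays, so they are not independent of each other.

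The sizes of the receptor falls were also set side by side between the lines. For IL18R1 the difference of responses, pre-miR-371 minus GFP vector, was 0.35 (95% interval 0.0057 to 0.68, limma adjusted p = 0.323), which leaves room for a fall that was smaller in pre-miR-371 cells by up to 0.68. For IL1R2 the difference was 0.48 on the main probe set and 0.02 on the other (211372_s_at). For IL1RL1 it was -0.07 on the main probe set. The values of IL1R2 and IL1RL1 are given with no test. The other probe sets of IL1RL1 gave 0.67, 0.64 and 0.12 and the mean of all its probe sets gave 0.34, so no direction is given for this gene. In DMSO, IL18R1 had a log2 fold change of -0.34 between pre-miR-371 and GFP vector cells (limma adjusted p = 0.0998) and IL1RL1 of -0.21 (limma adjusted p = 0.317). IL1R1 differed by -0.24 between pre-miR-371 and GFP vector cells in erlotinib (limma adjusted p = 0.0325, fold 1.18, under the limit) and by -0.16 in DMSO (limma adjusted p = 0.184). With every probe set tested, the limma adjusted p in erlotinib was 0.0538. The low probe set of IL1R1 (215561_s_at) gave -0.0029 in erlotinib and 0.14 in DMSO.

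**Figure D5:**
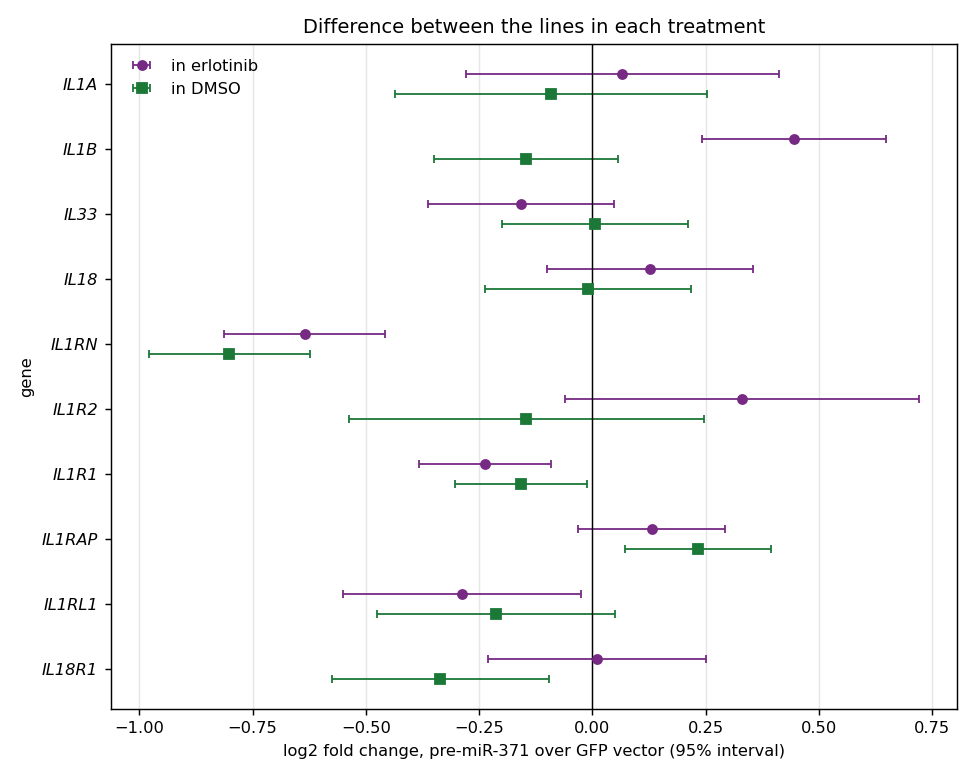
Log2 fold change of each gene, pre-miR-371 over GFP vector, in erlotinib (purple circles) and in DMSO (green squares); lines are 95% confidence intervals from limma. IL1RN lies at -0.63 and -0.80, and IL1B lies at 0.45 in erlotinib and -0.15 in DMSO.

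The rest of the pathway was measured from lists of genes. None of the 6 other receptors and binding proteins (IL1RL2, IL18RAP, IL1RAPL1, IL1RAPL2, SIGIRR and IL18BP) was called in any comparison. Among 6 other ligands only IL37, an anti-inflammatory cytokine, was called, lower with erlotinib in GFP vector cells (log2 fold change -0.60, limma adjusted p = 0.000277). In pre-miR-371 cells its log2 fold change was -0.38 (limma adjusted p = 0.00812, under the fold limit), and the difference of its responses, 0.22, did not pass the test (limma adjusted p = 0.526). At an unadjusted p under 0.05, SIGIRR alone among the 6 receptors and binding proteins was higher with erlotinib in GFP vector cells, where 28.4% of all genes were. It alone was also lower in pre-miR-371 than in GFP vector cells in both treatments, where 17.7% of all genes in erlotinib and 13.8% in DMSO were. Of 13 adaptors and kinases, 2 were called higher and 2 lower with erlotinib in pre-miR-371 cells, and 1 higher and 3 lower in GFP vector cells. Over all genes 12.6% were called higher and 9.33% lower in pre-miR-371 cells, and 14.1% and 11.7% in GFP vector cells. IRAK2, a kinase of the receptor complex, averaged 6.72 in erlotinib and 8.56 in DMSO pre-miR-371 cells, and 6.92 in erlotinib and 8.43 in DMSO GFP vector cells, and fell by 1.84 and by 1.51 on the log2 scale (limma adjusted p = 1.54e-09 and 5.59e-09). IRAK1 fell by 0.65 in pre-miR-371 cells and by 0.63 in GFP vector cells, while IKBKB, the kinase that releases NF-kB from its inhibitor, rose by 0.77 and 0.99. TAB2 had log2 fold changes of 0.68 in pre-miR-371 cells and 0.54 in GFP vector cells, and CHUK of -0.55 and -0.87. Each passed the adjusted p in both lines (limma adjusted p at most 0.000274), and TAB2 in GFP vector cells and CHUK in pre-miR-371 cells were under the fold limit. The differences of responses did not pass the test (limma adjusted p = 0.501 and 0.262). MYD88, the adaptor that all these receptors use, had log2 fold changes of 0.16 and 0.05 and was not called.

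Known NF-kB response genes went both ways, and of the 15 measured, 4 were called higher and 1 lower with erlotinib in each line, beside the 12.6% and 9.33% of all genes in pre-miR-371 cells and the 14.1% and 11.7% in GFP vector cells. TNFAIP3, which encodes the NF-kB brake A20, averaged 7.84 in erlotinib and 9.51 in DMSO pre-miR-371 cells, and 7.70 in erlotinib and 10.0 in DMSO GFP vector cells. It fell by 1.67 on the log2 scale in pre-miR-371 cells and by 2.33 in GFP vector cells, and the difference of the responses, 0.66, was called (SE 0.08, limma adjusted p = 0.00615). NFKBIZ, a nuclear IκB protein, rose by 2.43 and 2.84, PTGS2, the inducible cyclooxygenase, by 2.38 and 2.49, REL by 1.06 and 1.21 and ICAM1 by 0.97 and 1.32, each given for pre-miR-371 and then GFP vector cells on the log2 scale. Of 11 genes of the inflammasome and of cytokine processing, PYCARD, the adaptor ASC, was the only one called with erlotinib, and it rose by 0.84 in pre-miR-371 cells and by 1.13 in GFP vector cells. No gene of these 5 lists was called between the lines by limma. An unadjusted p under 0.05 between the lines was found for 5 of 13 adaptors and kinases, 5 of 11 inflammasome genes and 6 of 15 NF-kB response genes in erlotinib, where 30.5% of all genes had one, and for 5, 5 and 3 in DMSO, where 22.8% had. Nothing is read from these counts.

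ST2 is also a surface protein of mast cells and basophils, and IL1R2 of neutrophils and macrophages, so markers of other cells were set beside the falls. None of the 4 measured mast cell and basophil markers was called by limma with erlotinib in either line, and none had an unadjusted p under 0.05. Over all genes, 12.6% were called higher and 9.33% lower in pre-miR-371 cells, and 14.1% and 11.7% in GFP vector cells. At an unadjusted p under 0.05, 26.5% of all genes were higher and 25.4% lower in pre-miR-371 cells, and 28.4% and 25.3% in GFP vector cells. Their summed log2 level was 14.5 to 14.6 in erlotinib and 14.3 to 14.6 in DMSO arrays of pre-miR-371 cells, and 13.9 to 14.6 in erlotinib and 14.2 to 14.7 in DMSO arrays of GFP vector cells. KIT averaged 2.98 and 2.96 in erlotinib and DMSO pre-miR-371 cells. The summed level of the 6 leukocyte markers was higher with erlotinib, at 26.3 to 27.8 in erlotinib against 23.6 to 25.0 in DMSO arrays of pre-miR-371 cells, and 26.6 to 26.8 in erlotinib against 23.3 to 25.2 in DMSO arrays of GFP vector cells. Here 2 of 6 markers were called higher in both lines, ITGAM (1.28 and 1.14) and LYZ (1.26 and 1.37), beside 12.6% and 14.1% of all genes. Of 5 fibroblast and endothelial markers, PECAM1 was called higher in both lines (1.03 and 1.27), beside the same shares of all genes. Unlike the leukocyte and mast cell markers, 2 of these 5 had group means of at least 6 log2 units in every group. The highest group mean on this list was between 7.88 and 9.17 over the 4 groups. All samples were of the cultured PC9 line, and the part of these rises in the results was not tested.

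The genes whose levels followed IL1RL1 most closely over the 12 arrays, among 9645 other genes that averaged 6 log2 units or more, were TXLNG (Pearson r = 0.999), DUSP4, a MAP kinase phosphatase (0.998), and WDR74 (0.998). For IL1R2 they were NDUFAF2 (0.998), COL13A1 (0.998) and OSBPL3 (0.998). DUSP4 averaged 7.19 in erlotinib and 10.3 in DMSO pre-miR-371 cells, and 7.24 in erlotinib and 10.4 in DMSO GFP vector cells. COL13A1, a transmembrane collagen, averaged 4.25 in erlotinib and 8.91 in DMSO pre-miR-371 cells, and 3.87 in erlotinib and 8.89 in DMSO GFP vector cells. These correlations describe the split of the arrays by treatment, since 350 genes for IL1RL1 and 289 for IL1R2 had r over 0.99.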

How the data were processed

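Total RNA from 12 PC9 samples was measured on Affymetrix HG-U133 Plus 2.0 arrays. The values deposited by the authors are log2 expression, with each probe set measured on each array. Quantile normalization is stated in the paper, RMA and affy are listed in the processing notes of the submitters, with their versions not given in the sources used. Background correction, normalization and summary over probes are thus already in the values, and the number of arrays limits the precision. Samples were grouped by their labels.

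Of 54675 probe sets, 41097 had 1 gene symbol in the platform annotation, 1801 had several and 11777 none listed, and 62 were control probe sets. Symbols were updated by Entrez identifier, which matched 19735 of 19775 genes, and the probe set with the highest mean stood for each gene. Comparisons used limma 3.58.1 (R 4.3.3), with a mean for each group, lmFit and eBayes over all 12 arrays and Benjamini-Hochberg adjustment over all genes. Calls required an adjusted p below 0.05 together with a change of more than 1.5-fold. The model was tested on simulated data. Promoter windows and the miRNA came from RefSeq. Figures used matplotlib 3.10.9.

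The genes and lists were chosen with earlier results of these data known. Every gene of the family was named with all its probe sets, and of each list up to 3 genes per comparison with the smallest p. Further called genes, MYD88, KIT and PTPRC were named after their values were seen. Alternatives were the mean of probe sets, every probe set, a filter at a mean of 6, repeated normalization, median centring, the replicate block, eBayes with trend, array weights, only the groups compared, the methods' t-test, other fold limits and each array left out.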

Additional observations from a re-analysis of the deposited data

Results flagged for a closer look

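The responses of IL1B to erlotinib differed between the lines by a test of the difference itself (0.59 on the log2 scale, pre-miR-371 minus GFP vector, limma adjusted p = 0.0431). IL1B had log2 fold changes of -0.18 in pre-miR-371 cells and -0.77 in GFP vector cells, at levels between 4.43 and 5.51. The other probe set of the gene gave a difference of -0.10. The call was lost when any of 11 of the 12 arrays was left out (limma adjusted p up to 0.108), with every probe set tested (limma adjusted p = 0.0666) and with the mean of both probe sets (0.25, limma adjusted p = 0.425). With repeated quantile normalization (0.58) and with array weights (0.54) it fell under the fold limit.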

How the results depend on the processing

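The counts moved mostly with the limits and the probe sets. Beside the main counts of 4328, 5104, 245, 89 and 158 genes (erlotinib in pre-miR-371 cells, erlotinib in GFP vector cells, the lines in erlotinib, the lines in DMSO, the difference of responses), no fold limit gave 9286, 9853, 3156, 1039 and 395, and a fold over 2 gave 1939, 2501, 24, 7 and 13. Every probe set tested gave 7762, 9331, 454 and 186 in the first 4 comparisons, the mean of all probe sets gave 145 and 42 between the lines, genes with a mean of at least 6 gave 152 and 45, and the methods' t-test after Benjamini-Hochberg gave 161 and 7. Array weights gave 269 for the difference of responses. Leaving out 1 array at a time gave 79 to 142 for the lines in DMSO.

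With no fold limit, 4 of the 8 interleukin 1 genes not picked on their fall were called with erlotinib in pre-miR-371 cells, beside 9286 of all 19775 genes. Between the lines in erlotinib 3 of the 10 genes were called, beside 3156 of all genes. A fold over 2 left 1 with erlotinib in pre-miR-371 cells and 2 in GFP vector cells, beside 1939 and 2501 of all genes. It left 0 in the other comparisons, beside 24, 7 and 13 of all genes. The filter at a mean of 6 kept 5 of the 10 genes and 9650 of all genes. It left 1 with erlotinib in each line, beside 3428 of all genes in pre-miR-371 and 3998 in GFP vector cells. For the difference of responses it left 0, beside 127. The mean of all probe sets left 0 between the lines in erlotinib, 0 in DMSO and 0 for the difference, beside 145, 42 and 112 of all genes. The methods' t-test left 0 between the lines in DMSO, where IL1RN had an adjusted p of 0.0572. IL1B lost its call for the difference (0 genes) with every probe set tested, repeated quantile normalization and array weights, and leaving out 1 array gave 0 to 1 there and 0 to 1 between the lines in erlotinib.

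The sign turned only for values that had not been called. With the mean of all probe sets the log2 fold change of IL1RAP with erlotinib was -0.27 in pre-miR-371 cells and -0.14 in GFP vector cells, that of IL1RL1 between the lines in erlotinib was 0.077, that of IL1A between the lines in DMSO was 0.11, and the differences of responses were -0.063 for IL1A, -0.00064 for IL1RN and 0.34 for IL1RL1. Repeated quantile normalization gave -0.036 for IL1RAP with erlotinib in pre-miR-371 cells and -0.0093 for IL33 and 0.095 for IL18 between the lines in DMSO. Median centring gave -0.028 for IL1R1 with erlotinib in GFP vector cells and -0.023 for IL33 between the lines in DMSO, and array weights gave -0.026 for IL33 there too. Leaving out 1 array gave, between the lines in DMSO, -0.085 to 0.037 for IL18, -0.26 to 0.018 for IL1A and -0.11 to 0.090 for IL33. Between the lines in erlotinib it gave -0.13 to 0.10 for IL18R1 and -0.013 to 0.22 for IL1A. With erlotinib it gave -0.020 to 0.073 for IL1R1 in GFP vector cells, and -0.0100 to 0.10 for IL1RAP and -0.13 to 0.068 for IL33 in pre-miR-371 cells. For the difference of responses of IL1RL1 it gave -0.24 to 0.050. The falls of IL18R1 and IL18 were called in both lines at a fold limit of 1.5 by every alternative that tested them. Each of these genes had only 1 probe set, so the mean of probe sets could not change its value.

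The labels give the replicate numbers no shared origin, so the arrays were treated as unpaired. Deviations from the group means correlated at r of -0.06 to 0.20 over 18 same-numbered pairs, of which 7 were over 0.1, and at -0.20 to 0.11 over 36 other pairs. That 10 of 12 arrays correlated best with their own number is a hint, from the data, of a shared-number effect. The replicate block gave 4327, 5104, 242, 93 and 154 genes and changed no call of the interleukin 1 genes. The t-test was not run for the difference of responses, and background correction was not repeated. The signals of IL1A and IL33, and the erlotinib levels of IL1RL1 and IL1R2, lay below the array medians, which limits what their folds show.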
